A study of Mus musculus with 12 samples.

Results

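The neuromodulator and peptide receptors described here are 10 of the 53465 genes in the count files: Adra1a, Adra1b, Adra2a and Adrb1 (adrenergic receptors), Adora1 and Adora2b (adenosine receptors), P2ry1 (a purine nucleotide receptor), Ntsr2 (a neurotensin receptor), and Ednra and Ednrb (endothelin receptors). They were taken as a named list of receptors of astrocytes, matched by gene symbol, and all 10 passed the filter on low counts. The list was chosen with earlier results of these data known. A higher level in the fractions rich in astrocyte markers is therefore a description and not a test of the list. All of them code for cell surface receptors that act through G proteins. Adra1a, Adra1b, P2ry1, Ednra and Ednrb mainly couple to Gq, which releases calcium from internal stores. Adra2a and Adora1 couple to Gi and lower cyclic AMP, while Adrb1 and Adora2b couple to Gs and raise it. Astrocytes are known to answer noradrenaline, released along fibres that descend to the spinal cord from the brainstem, and ATP and its breakdown product adenosine with calcium and cyclic AMP signals, and Ednrb is a classical astrocyte receptor that responds to injury.

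RNA was measured in 12 libraries of total RNA from glial cells of the brachial and thoracic spinal cord of C57BL/6 mice of the genotype Aldh1L1-GFP/Olig2-tdTomato at postnatal day 7. After papain digestion, cells were sorted on a flow cytometer as an eGFP/tdTomato fraction, an eGFP fraction and a tdTomato fraction, with 4 libraries each, numbered 1, 2, 3 and 5. The fractions share genotype, strain, age and tissue and differ in the sorted reporters, so no fraction comes from mice without reporters. How the gates were set, how the reporters are driven and how many animals went into a library is not stated, so a p-value here measures only the spread among the libraries at hand.

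Gene counts per library, in units of 1e6, ranged over 23.9 to 30.3 for eGFP/tdTomato, 12.6 to 27.9 for eGFP and 25.5 to 36.5 for tdTomato. Aldh1l1 ranged over 531 to 911 CPM in the eGFP/tdTomato fraction, 209 to 693 CPM in the eGFP libraries and 2.27 to 6.24 CPM in the tdTomato libraries (CPM, counts scaled to library size with TMM factors). Olig2 ranged over 41.5 to 106 CPM in the eGFP/tdTomato fraction, 1.73 to 8.75 CPM in the eGFP libraries and 175 to 361 CPM in the tdTomato libraries. The summed level of 10 astrocyte markers was 43164 to 50634 CPM in the eGFP/tdTomato fraction and 32963 to 47937 CPM in the eGFP fraction, against 226 to 317 CPM in the tdTomato fraction, with no marker at 0 in any library. That of 8 myelinating oligodendrocyte markers was 1503 to 3162, 383 to 1269 and 109333 to 161958 CPM in the same order. The library eGFP replicate 1 stood apart: 57.1% of its reads lay outside annotated genes, against 21.2 to 42.5% in the other 11 libraries, and it had the fewest gene counts.

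The receptors, listed as those of astrocytes, were higher where GFP was sorted for. All 10 were higher in eGFP/tdTomato than in tdTomato cells, and 9 of 10 were higher in eGFP than in tdTomato cells, with Adra1b the exception. The differences ran over a wide scale, up to 179-fold and 209-fold for Ntsr2 and down to 2.32-fold and 1.33-fold for Adra1b. In the edgeR fit with fraction as the only factor, none of the 10 passed the test between the eGFP/tdTomato and eGFP fractions. Adora1 and Adora2b passed with the replicate numbers as a block or with a covariate for reads outside genes. What libraries of the same number share is not stated. In these bulk libraries, fewer cells of a type and less RNA per cell cannot be told apart.

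These counts stand beside the calls over all 29361 genes tested with edgeR's quasi-likelihood test, where a gene with a Benjamini-Hochberg adjusted p under 0.05 was called. Of all genes, 29.2% were called between the eGFP/tdTomato and tdTomato fractions (16.8% higher), and 35.2% between the eGFP and tdTomato fractions (20.4% higher). The median log2 fold change of the receptors was 3.68 in the first of these comparisons, against 0.70 over all genes, and 3.75 in the other, against 0.79 over all genes. These 2 comparisons share the tdTomato libraries, and the comparison of eGFP/tdTomato with eGFP shares a fraction with each. Between the eGFP/tdTomato and eGFP fractions, 2.49% of all genes were called, and the median log2 fold change was 0.37 for the receptors and −0.02 for all genes. At an unadjusted p of 0.05, edgeR gave 4 of the 10 receptors (Adra1b, Adrb1, Adora1 and Adora2b, all higher in the eGFP/tdTomato fraction), while DESeq2 and limma-voom each called 1 receptor, Adora1, after adjustment. Adora2b and Ednrb were the 2 of 10 receptors whose eGFP/tdTomato libraries all lay above the eGFP libraries, a pattern shown by 3.75% of all genes, and 0 of 10 had theirs all below, as 4.18% of all genes did.

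**Figure D1:**
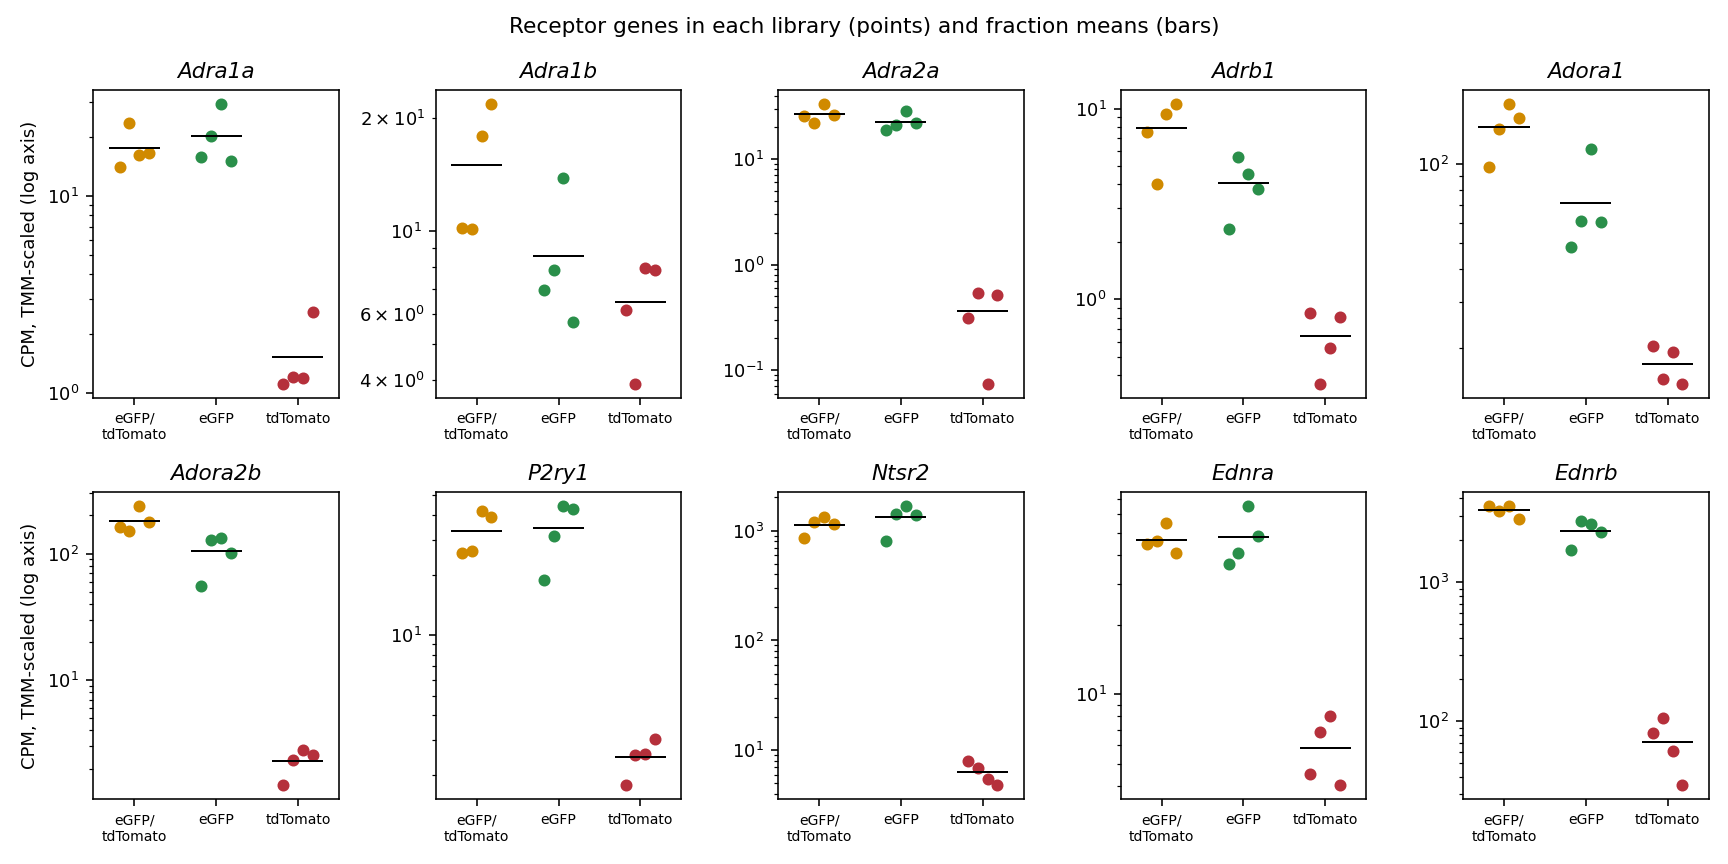
Level of each receptor gene in CPM scaled by TMM factors (log axis, a separate scale per gene) in the eGFP/tdTomato, eGFP and tdTomato fractions; points are libraries 1, 2, 3 and 5 from left to right and bars are the means of 4 libraries. The tdTomato libraries lie below all others for each gene except Adra1b, where eGFP libraries lie among them.

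The promoter windows of the receptors differed in the number of CG pairs, the sites of DNA methylation in vertebrates. RefSeq start sites (GRCm38.p6) gave 11 windows for 9 of the 10 receptors, each with 250 bases before and 50 bases after the start. The 5 windows printed belong to the receptors with the 3 largest mean levels per length in the eGFP/tdTomato fraction (Ednrb, Ntsr2 and Adora2b) and to Adra1b, the receptor with the smallest difference from the tdTomato fraction, with CG pairs in capitals.
Ednrb (chr14:103843652-103843951, minus strand): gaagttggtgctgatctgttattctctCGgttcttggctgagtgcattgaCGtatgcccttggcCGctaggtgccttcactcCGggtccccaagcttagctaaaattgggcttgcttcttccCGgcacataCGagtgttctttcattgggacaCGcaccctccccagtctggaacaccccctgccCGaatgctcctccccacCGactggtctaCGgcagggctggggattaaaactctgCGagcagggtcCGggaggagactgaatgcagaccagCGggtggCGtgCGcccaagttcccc
Ntsr2 (chr12:16653220-16653519, plus strand): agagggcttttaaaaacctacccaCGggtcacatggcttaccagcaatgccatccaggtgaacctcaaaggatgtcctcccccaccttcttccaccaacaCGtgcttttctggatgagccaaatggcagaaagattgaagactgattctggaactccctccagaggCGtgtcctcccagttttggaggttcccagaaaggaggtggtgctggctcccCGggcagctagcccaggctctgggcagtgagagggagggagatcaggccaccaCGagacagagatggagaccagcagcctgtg
Adora2b (chr11:62248734-62249033, plus strand): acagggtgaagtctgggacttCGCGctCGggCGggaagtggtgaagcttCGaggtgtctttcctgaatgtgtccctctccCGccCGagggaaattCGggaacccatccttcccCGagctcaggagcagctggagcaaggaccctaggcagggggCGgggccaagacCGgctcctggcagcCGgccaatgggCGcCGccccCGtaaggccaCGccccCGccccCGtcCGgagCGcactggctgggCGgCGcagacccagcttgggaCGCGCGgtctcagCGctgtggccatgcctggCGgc
Adra1b, downstream start (chr11:43836440-43836739, minus strand): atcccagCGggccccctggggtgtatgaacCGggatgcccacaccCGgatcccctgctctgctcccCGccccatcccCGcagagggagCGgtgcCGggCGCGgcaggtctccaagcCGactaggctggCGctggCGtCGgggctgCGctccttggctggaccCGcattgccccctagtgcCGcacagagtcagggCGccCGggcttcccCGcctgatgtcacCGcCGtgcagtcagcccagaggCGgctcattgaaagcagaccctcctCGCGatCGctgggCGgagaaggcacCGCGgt
Adra1b, upstream start (chr11:43901188-43901487, minus strand): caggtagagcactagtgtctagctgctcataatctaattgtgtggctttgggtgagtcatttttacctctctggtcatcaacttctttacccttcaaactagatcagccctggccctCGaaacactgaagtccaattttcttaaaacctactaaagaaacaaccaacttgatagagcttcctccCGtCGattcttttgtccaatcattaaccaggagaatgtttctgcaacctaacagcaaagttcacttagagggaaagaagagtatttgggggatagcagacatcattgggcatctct

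The Ntsr2 window held 5 CG pairs, and 62.0% of the 32851 windows in the RefSeq table had at least as many. The Ednrb window held 15 and the Adora2b window 27, counts reached by 34.6% and 15.5% of all windows. Adra1b had 28 CG pairs at its downstream start and 3 at its upstream start, so that its 2 windows were the richest, level with those of Adra2a and Adrb1, and the poorest among the receptors. The windows of Adora1 (24 and 26 CG pairs) and P2ry1 (25) were also rich, and that of Ednra held 8. The letters GGGCGG, the core of a GC box, were present on either strand in windows of 6 of 9 receptor genes (Adora1, Adora2b, Adra1b, Adra2a, Adrb1 and P2ry1) and in 35.7% of all windows. TATAAA was found in 1 gene, Adra2a (13.6% of all windows), and TGACGT, the core of a cyclic AMP response element, in 1 gene, Ednrb (7.51% of all windows). TTGGCA, letters bound by nuclear factor I, was in the windows of 0 of 9 genes and in 14.1% of all windows. GGGCGG and TGACGT each hold a CG pair that is also in the CG counts. A match describes the letters of the window and is not evidence of binding.

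Among the alpha-1 adrenergic receptors, Adra1a (ENSMUSG00000045875, chr14:66635251-66771168, plus strand, GRCm38) lay higher in both fractions sorted for GFP, and Adra1b lay closer to its tdTomato level. Adra1a stood at 13.98, 23.4, 16.1 and 16.6 CPM in eGFP/tdTomato libraries 1, 2, 3 and 5, at 15.8, 20.2, 29.4 and 15.0 CPM in the eGFP libraries, and at 1.11, 1.20, 1.19 and 2.58 CPM in the tdTomato libraries. All tdTomato libraries lay below the rest, while the eGFP/tdTomato and eGFP libraries overlapped. Relative to the tdTomato fraction, the log2 fold change was 3.52 ± 0.33 (SE) in the eGFP/tdTomato fraction (11.5-fold, adjusted p = 6.50e-07) and 3.72 ± 0.34 in the eGFP fraction (13.2-fold, adjusted p = 3.51e-07). Its difference between the eGFP/tdTomato and eGFP fractions was −0.20 ± 0.29 (adjusted p = 1.00), with an interval of 2 SE from −0.79 to 0.39.

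Adra1b (ENSMUSG00000050541, chr11:43774606-43901210, minus strand) stood at 10.2, 10.1, 17.9 and 21.8 CPM in the eGFP/tdTomato libraries, at 6.97, 7.85, 13.8 and 5.70 CPM in the eGFP libraries, and at 6.15, 3.91, 7.96 and 7.86 CPM in the tdTomato libraries. The eGFP/tdTomato libraries all lay above the tdTomato libraries, as those of all 10 receptors did and those of 20.6% of all genes, but the eGFP libraries overlapped both other fractions. For the 9 other receptors the eGFP libraries lay above the tdTomato libraries, as for 19.6% of all genes. Adra1b was 2.32-fold higher in eGFP/tdTomato than in tdTomato cells (log2 fold change 1.21 ± 0.34, adjusted p = 0.0137). This call was lost without eGFP/tdTomato replicate 3 (0.83, adjusted p = 0.104) or replicate 5 (0.98, adjusted p = 0.0633). Between the eGFP and tdTomato fractions the log2 fold change was 0.41 ± 0.34 (adjusted p = 0.346, interval −0.27 to 1.09), below the median of all genes, and between the eGFP/tdTomato and eGFP fractions it was 0.80 ± 0.34 (adjusted p = 0.397, interval 0.12 to 1.48). The summed level of 8 oligodendrocyte progenitor markers was 563 to 1120 CPM in the eGFP/tdTomato fraction, 199 to 442 CPM in the eGFP libraries and 2494 to 4193 CPM in the tdTomato libraries, and its part in the Adra1b level was not tested.

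Adra2a (ENSMUSG00000033717, chr19:54044151-54048982, plus strand), the Gi-coupled alpha-2A receptor whose exons form 1 block, was the receptor with the lowest level per kilobase of exon in the tdTomato fraction. It stood at 25.4, 22.1, 33.4 and 26.4 CPM in the eGFP/tdTomato libraries and at 18.9, 20.8, 28.8 and 22.1 CPM in the eGFP libraries, against 0.31, 0.54, 0.074 and 0.52 CPM in the tdTomato libraries, where these levels rest on 7, 18, 2 and 14 counts. The tdTomato libraries lay far below the rest, and the other fractions overlapped. The log2 fold change was 6.17 ± 0.38 in the eGFP/tdTomato over the tdTomato fraction (72.0-fold, adjusted p = 7.62e-09) and 5.93 ± 0.38 in the eGFP over the tdTomato fraction (60.8-fold, adjusted p = 9.74e-09). It was 0.24 ± 0.29 in the eGFP/tdTomato over the eGFP fraction (adjusted p = 1.00, interval −0.33 to 0.82).

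Adrb1 (ENSMUSG00000035283, chr19:56722199-56733113, plus strand), the Gs-coupled beta-1 receptor, stood at 7.57, 4.03, 9.38 and 10.6 CPM in the eGFP/tdTomato libraries, at 2.34, 5.59, 4.55 and 3.77 CPM in the eGFP libraries, and at 0.85, 0.36, 0.56 and 0.81 CPM in the tdTomato libraries (19, 12, 15 and 22 counts). Of the eGFP/tdTomato libraries, 3 lay above every eGFP library and replicate 2 lay among them. Adrb1 had a log2 fold change of 3.62 ± 0.43 in the eGFP/tdTomato over the tdTomato fraction (12.3-fold, adjusted p = 7.55e-06) and 2.66 ± 0.42 in the eGFP over the tdTomato fraction (6.33-fold, adjusted p = 1.15e-04). In the eGFP/tdTomato over the eGFP fraction it was 0.96 ± 0.38, which did not pass (adjusted p = 0.345, interval 0.19 to 1.72).

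Adora1 (ENSMUSG00000042429, chr1:134199223-134235431, minus strand), the Gi-coupled A1 adenosine receptor, stood at 97.8, 136, 169 and 149.96 CPM in the eGFP/tdTomato libraries, at 48.5, 60.6, 114 and 60.2 CPM in the eGFP libraries, and at 20.5, 15.3, 19.4 and 14.7 CPM in the tdTomato libraries. The overlap between the eGFP/tdTomato and eGFP fractions came from a single pair, eGFP replicate 3 above eGFP/tdTomato replicate 1. The tdTomato libraries lay below both. Adora1 was 7.93-fold higher in eGFP/tdTomato than in tdTomato cells (log2 fold change 2.99 ± 0.27, adjusted p = 4.69e-07) and 4.06-fold higher in eGFP than in tdTomato cells (2.02 ± 0.27, adjusted p = 1.95e-05). In the eGFP/tdTomato over the eGFP fraction it had the lowest p of the 10 receptors, with a log2 fold change of 0.96 ± 0.26 (1.95-fold, adjusted p = 0.0665, interval 0.45 to 1.48). It passed in 8 of 22 alternative analyses, over which the adjusted p ranged from 0.00294 to 0.310. Exons of Mybph on the opposite strand cover 20.1% of the exon length of Adora1, and the strand setting of the counting is not given in the sources used here. Reads there may have been set aside as ambiguous, so the level of Adora1 may miss them. Mybph was at 0.28, 0.22 and 0.037 CPM in the eGFP/tdTomato, eGFP and tdTomato fractions.

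Adora2b (ENSMUSG00000018500, chr11:62248984-62266453, plus strand), the Gs-coupled A2B adenosine receptor, stood at 161, 151, 240 and 176 CPM in the eGFP/tdTomato libraries, at 55.3, 128, 132 and 102 CPM in the eGFP libraries, and at 1.47, 2.32, 2.79 and 2.55 CPM in the tdTomato libraries. The 3 fractions did not overlap. Adora2b had a log2 fold change of 6.31 ± 0.33 in the eGFP/tdTomato over the tdTomato fraction (79.2-fold, adjusted p = 1.71e-09) and 5.51 ± 0.32 in the eGFP over the tdTomato fraction (45.5-fold, adjusted p = 4.03e-09). In the eGFP/tdTomato over the eGFP fraction it was 0.80 ± 0.26 and did not pass (1.74-fold, adjusted p = 0.174, interval 0.28 to 1.32). Adora2b passed in 2 of 22 alternative analyses, over which the adjusted p ranged from 0.0151 to 0.823. The lowest eGFP value was that of replicate 1, and without that library the log2 fold change was 0.53 (adjusted p = 0.349).

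P2ry1 (ENSMUSG00000027765, chr3:61002795-61008982, plus strand), a Gq-coupled receptor for ADP, stood at 25.8, 26.3, 41.7 and 38.8 CPM in the eGFP/tdTomato libraries, at 18.9, 31.2, 44.4 and 42.8 CPM in the eGFP libraries, and at 1.78, 2.53, 2.57 and 3.03 CPM in the tdTomato libraries. The eGFP/tdTomato and eGFP libraries overlapped along most of their range, and all lay above the tdTomato libraries. P2ry1 had a log2 fold change of 3.74 ± 0.30 in the eGFP/tdTomato over the tdTomato fraction (13.3-fold, adjusted p = 1.20e-07) and 3.79 ± 0.30 in the eGFP over the tdTomato fraction (13.8-fold, adjusted p = 9.59e-08). For eGFP/tdTomato over eGFP it was −0.05 ± 0.27 (adjusted p = 1.00, interval −0.58 to 0.48). The antisense gene Gm37035 covers 23.1% of the exon length of P2ry1 and was at 1.90, 2.36 and 0.17 CPM in the eGFP/tdTomato, eGFP and tdTomato fractions. Without a stated strand setting, reads there may also have been set aside as ambiguous, so the level of P2ry1 may miss them.

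Ntsr2 (ENSMUSG00000020591, chr12:16653382-16660227, plus strand), the low-affinity receptor of the peptide neurotensin, showed the largest difference from the tdTomato fraction among the 10 receptors. It stood at 861, 1197, 1315 and 1141 CPM in the eGFP/tdTomato libraries and at 807, 1406, 1689 and 1383 CPM in the eGFP libraries, against 8.02, 6.92, 5.54 and 4.80 CPM in the tdTomato libraries. No tdTomato library exceeded 8.02 CPM, and no other library was under 807 CPM. The log2 fold change was 7.48 ± 0.31 in the eGFP/tdTomato over the tdTomato fraction (179-fold, adjusted p = 2.91e-10) and 7.71 ± 0.32 in the eGFP over the tdTomato fraction (209-fold, adjusted p = 1.95e-10). It was −0.23 ± 0.23 in the eGFP/tdTomato over the eGFP fraction (adjusted p = 1.00, interval −0.69 to 0.24).

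Ednrb (ENSMUSG00000022122, chr14:103814625-103844402, minus strand), the endothelin B receptor, had the highest level per kilobase of exon of the 10 in each fraction. It stood at 3558, 3227, 3549 and 2834 CPM in the eGFP/tdTomato libraries, at 1717, 2754, 2625 and 2294 CPM in the eGFP libraries, and at 82.1, 105, 61.7 and 34.6 CPM in the tdTomato libraries. The 3 fractions did not overlap, with eGFP/tdTomato replicate 5 just above eGFP replicate 2. Ednrb had a log2 fold change of 5.54 ± 0.33 in the eGFP/tdTomato over the tdTomato fraction (46.4-fold, adjusted p = 5.52e-09) and 5.05 ± 0.33 in the eGFP over the tdTomato fraction (33.1-fold, adjusted p = 1.01e-08). In the eGFP/tdTomato over the eGFP fraction it was 0.49 ± 0.27 (1.40-fold, adjusted p = 0.683, interval −0.06 to 1.04), and 0.31 without eGFP replicate 1 (adjusted p = 0.961).

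Ednra (ENSMUSG00000031616, chr8:77663031-77724464, minus strand), the endothelin A receptor best known from vascular smooth muscle, stood at 44.7, 46.2, 54.9 and 41.0 CPM in the eGFP/tdTomato libraries, at 36.8, 40.9, 65.6 and 48.4 CPM in the eGFP libraries, and at 4.50, 6.83, 8.03 and 4.02 CPM in the tdTomato libraries. The eGFP/tdTomato libraries lay within the range of the eGFP libraries, and the tdTomato libraries lay below both. The log2 fold change was 2.99 ± 0.26 in the eGFP/tdTomato over the tdTomato fraction (7.97-fold, adjusted p = 2.26e-07), 3.03 ± 0.26 in the eGFP over the tdTomato fraction (8.18-fold, adjusted p = 1.89e-07) and −0.04 ± 0.24 in the eGFP/tdTomato over the eGFP fraction (adjusted p = 1.00, interval −0.51 to 0.43). The summed level of 8 mural cell markers, which follow smooth muscle cells and pericytes, was 101 to 217 CPM in the eGFP/tdTomato fraction, 71.0 to 175 CPM in the eGFP libraries and 2.27 to 9.45 CPM in the tdTomato libraries, with at most 1 of the 8 at 0 in a library; its part in the Ednra difference was not tested. Notch3 made up most of this sum in the eGFP/tdTomato and eGFP fractions (122 and 63.2 CPM on average). In the tdTomato fraction it did not (0.855 of 5.84 CPM on average). Between the eGFP/tdTomato and eGFP fractions, 1 of 7 mural markers tested had a positive log2 fold change, and their median was −0.32.

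**Figure D2:**
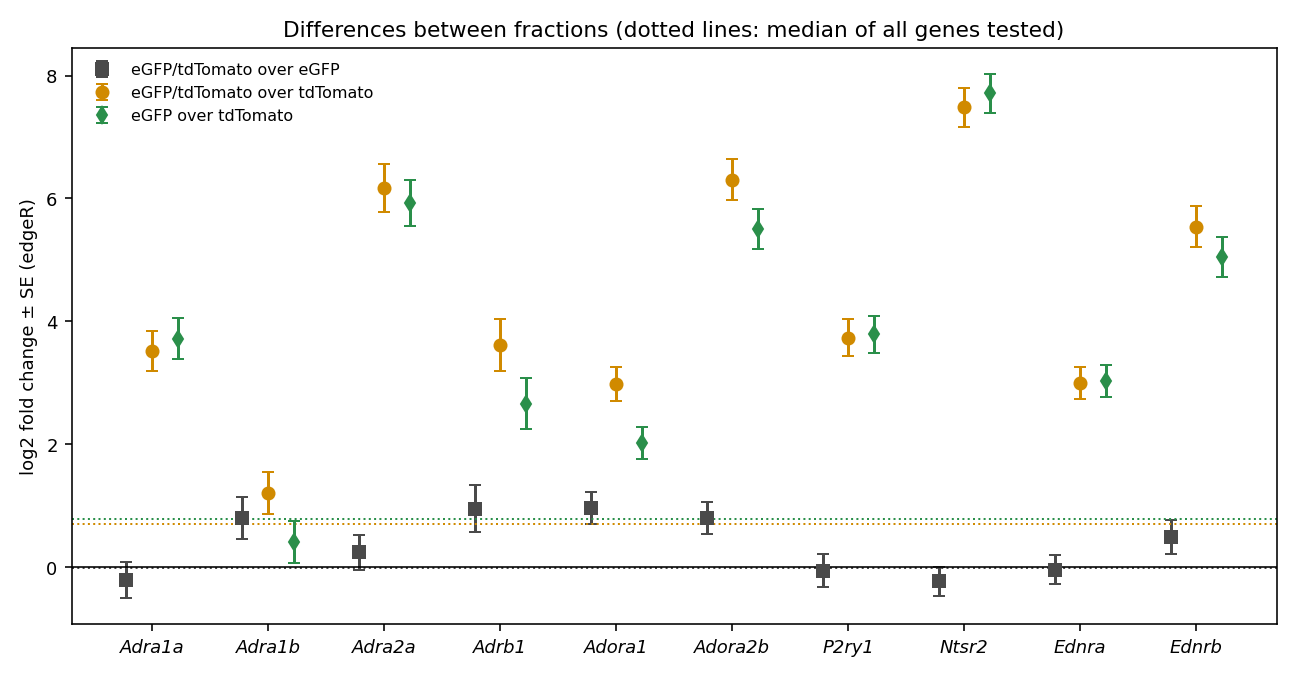
Log2 fold change of each receptor (points, bars are ± SE from edgeR) for the eGFP/tdTomato over the eGFP fraction, the eGFP/tdTomato over the tdTomato fraction and the eGFP over the tdTomato fraction, with the median of all genes tested as a dotted line of the same colour. Between the eGFP/tdTomato and eGFP fractions the values lie between −0.23 and 0.96, while Ntsr2 reaches 7.48 and 7.71 against the tdTomato fraction and Adra1b 1.21 and 0.41.

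Per kilobase of exon, a rough scale for setting levels of different genes side by side, Ednrb and Ntsr2 made up most of the summed receptor level of both fractions sorted for GFP. The length used is that of all annotated exons, and which transcripts were expressed is not known. This limits the order of the receptors and the ratios between receptors given below. In the eGFP/tdTomato fraction the order was Ednrb (772 ± 80.2 CPM per kb, SD, n = 4), Ntsr2 (362 ± 61.7), Adora2b (98.5 ± 21.6), Adora1 (23.9 ± 5.24) and Ednra (8.53 ± 1.08), and each of the first 4 did not overlap the next. P2ry1 (7.72), Adra2a (5.55), Adra1b (4.43), Adrb1 (2.33) and Adra1a (2.01) followed, and from Ednra on each overlapped its neighbour in the order. In the eGFP fraction Ednrb (550 ± 109 CPM per kb) and Ntsr2 (423 ± 118) overlapped, and Adora1 (12.3 ± 5.10) also overlapped Ednra (8.75 ± 2.33). The tdTomato fraction had a different order: Ednrb (16.6 ± 7.04 CPM per kb) came first, Adora1 (3.02 ± 0.505) second, then Ntsr2 (2.03) and Adra1b (1.91), with Adra2a (0.075) last. Ednrb there did not overlap Adora1, but Adora1 overlapped Ntsr2 and Ntsr2 overlapped Adra1b. Of the sum over the 10 receptors per kilobase, Ednrb held on average 60.1% in eGFP/tdTomato, 51.9% in eGFP and 59.6% in tdTomato cells. Ntsr2 held 28.1%, 39.2% and 7.65%, and Adora1 1.86%, 1.14% and 11.7%, in the same order.

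**Figure D3:**
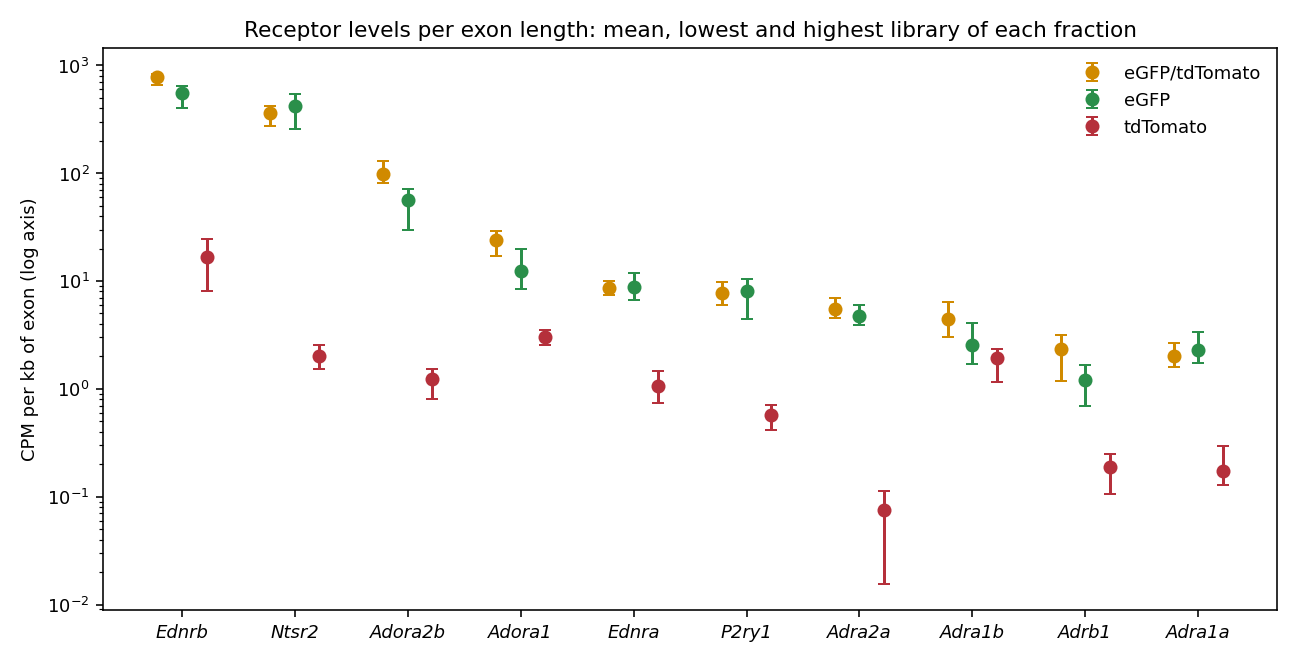
Receptor levels in CPM per kilobase of exon (log axis) for the eGFP/tdTomato, eGFP and tdTomato fractions, ordered by the eGFP/tdTomato mean; points are means of 4 libraries and bars run from the lowest to the highest library. Ednrb and Ntsr2 stand highest in both GFP-sorted fractions, and in the tdTomato fraction Adora1, at 3.02 CPM per kb, lies above Ntsr2, at 2.03.

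Ratios of related receptors within a library do not depend on how libraries are scaled, and 3 of them were compared in 3 pairs of fractions each. The smallest p that the exact two-sided permutation test of 4 against 4 libraries can give is 0.0286. Benjamini-Hochberg adjustment over the 9 tests turned it into 0.0429 here, a value that depends on how many of the 9 reached this smallest p. The log2 ratio of Ednrb to Ednra per kilobase was 6.67, 6.49, 6.37 and 6.47 in the eGFP/tdTomato libraries, 5.90, 6.43, 5.68 and 5.93 in the eGFP libraries, and 4.54, 4.30, 3.30 and 3.46 in the tdTomato libraries. Ednrb thus exceeded Ednra 90.6-fold in the eGFP/tdTomato fraction, 63.4-fold in the eGFP libraries and 14.9-fold in the tdTomato libraries. The difference was 2.60 ± 0.31 (SE) between the eGFP/tdTomato and tdTomato fractions and 2.09 ± 0.35 between the eGFP and tdTomato fractions, both at the smallest p. Its difference between the eGFP/tdTomato and eGFP fractions was 0.51 ± 0.17 and did not pass (exact permutation p = 0.0571, adjusted 0.0735), and it did without eGFP replicate 2 (0.66, adjusted p = 0.0367).

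The order of the adenosine receptors and the balance of the alpha-1 receptors also differed by fraction. Adora2b exceeded Adora1 in the eGFP/tdTomato and eGFP fractions, with mean log2 ratios of Adora1 to Adora2b of −2.05 ± 0.26 and −2.21 ± 0.44 (SD, n = 4 each), whereas Adora1 exceeded Adora2b in the tdTomato fraction (1.30 ± 0.57). The difference was −3.35 ± 0.31 (SE) for the eGFP/tdTomato against the tdTomato fraction and −3.51 ± 0.36 for the eGFP against the tdTomato fraction, both at the smallest p, and 0.16 ± 0.25 for the eGFP/tdTomato against the eGFP fraction (exact permutation p = 0.486). The log2 ratio of Adra1b to Adra1a was 1.09 ± 0.71 in the eGFP/tdTomato fraction, 0.11 ± 0.15 in the eGFP libraries and 3.48 ± 0.56 in the tdTomato libraries, where Adra1b was 11.2-fold above Adra1a. Against the tdTomato fraction this ratio differed by −2.39 ± 0.45 in the eGFP/tdTomato fraction and of −3.37 ± 0.29 in the eGFP fraction, both at the smallest p. Its eGFP/tdTomato values spread from 0.16 to 1.76, and the difference of 0.98 ± 0.36 from the eGFP fraction did not pass (exact permutation p = 0.0857, adjusted 0.0964), while it did without eGFP/tdTomato replicate 2 (1.29, adjusted p = 0.0367).

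**Figure D4:**
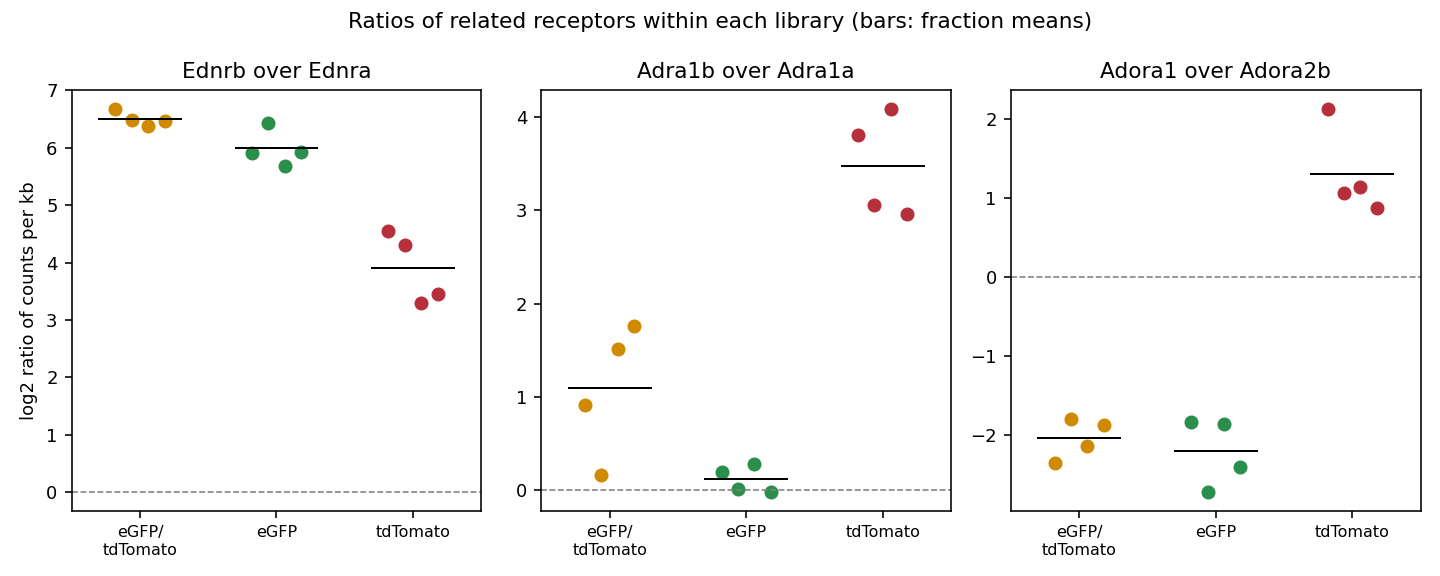
Log2 ratio of 2 related receptors, in counts per kilobase of exon, within each library of the eGFP/tdTomato, eGFP and tdTomato fractions; points are libraries 1, 2, 3 and 5 from left to right, bars are means of 4 libraries and the dashed line marks equal levels. Adora1 over Adora2b is below 0 in all libraries of the first 2 fractions and above 0 in all tdTomato libraries.

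The level of a receptor that was left in the tdTomato fraction varied widely between receptors. As a share of the eGFP/tdTomato mean, the tdTomato mean was 0.56% for Ntsr2, 1.25% for Adora2b, 1.35% for Adra2a and 2.15% for Ednrb. It was 7.47% for P2ry1, 8.16% for Adrb1, 8.69% for Adra1a, 12.5% for Ednra, 12.6% for Adora1 and 43.2% for Adra1b. The same share was 0.14 to 1.79% for the 10 astrocyte markers, so that 3 receptors lay within the range of the markers and 7 above it. For Adora1 and Adra1b the tdTomato libraries held 398 to 522 and 130 to 214 counts.

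The genes whose profiles over the 12 libraries were most like those of the receptors were found by the root mean square difference of log2(CPM + 0.5) values, each centred on its own mean. Candidates were 11127 protein-coding genes (11128 for Adrb1), tested and with a mean of at least 5 CPM, and the median distance of a candidate was 0.80 log2 units for Adra1b and 3.62 for Ntsr2. Ntsr2 was nearest to Gfap, an intermediate filament protein of astrocytes (0.26 log2 units), and Emp2 (0.30). Ednrb was nearest to Ndrg2 (0.21), a gene of mature astrocytes, and Fos (0.23), an immediate early transcription factor. Among the nearest to Adora1 was the kinase gene Snrk (0.21). Adora2b was nearest to the fatty acid transporter gene Slc27a1 (0.25) and Fam181a (0.27), and P2ry1 to Ppp1r1b (0.23) and the carbonic anhydrase gene Car5b (0.26). Ednra was nearest to Htra3 (0.19) and Cmtm3 (0.20), Adra2a to the phospholipase gene Plce1 (0.22) and Tmie (0.23), and Adra1a to Trim12a and Podn (0.28 each). Adra1b was nearest to Me1 (0.27) and Arap1 (0.28), and Adrb1 to Rnf215 (0.13) and Plekhh3 (0.29). The density of candidates differed, with 0.16% of them within 0.5 log2 units of Ntsr2 and 6.30% within that distance of Adra1b.

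Other receptors of the same families, such as further nucleotide and adrenergic receptors, were called in both directions. Of 16 such genes 15 were tested, and 2 were higher and 1 lower in eGFP/tdTomato than in tdTomato cells, 7 higher and 1 lower in the eGFP than in the tdTomato fraction, beside 29.2% and 35.2% of all genes called. The medians of log2 fold change were 1.04 and 1.502, against 0.70 and 0.79 for all genes. These medians include genes of low level, such as Adra2c (0.35, 0.31 and 0.23 CPM in the eGFP/tdTomato, eGFP and tdTomato fractions). For eGFP/tdTomato over eGFP, edgeR called 0 (1 at an unadjusted p of 0.05, and 0 with DESeq2 and with limma-voom), beside 2.49% of all genes. Sort1, a sorting receptor that binds neurotensin, was lower in eGFP/tdTomato than in tdTomato cells (34.1 against 74.3 CPM, log2 fold change −1.12, adjusted p = 8.79e-04). The nucleotide receptor P2ry14 was higher (18.1 against 9.34 CPM, 0.95, adjusted p = 0.0113). P2ry12, a nucleotide receptor of microglia, stood at 10.4, 17.8 and 7.03 CPM in the eGFP/tdTomato, eGFP and tdTomato fractions and was higher in eGFP than in tdTomato cells (1.34, adjusted p = 0.00386). The summed level of 10 microglia and macrophage markers was 22.4 to 33.7, 85.1 to 1093 and 22.7 to 39.9 CPM in the same order, and its part in the P2ry12 difference was not tested.

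Among 40 other neuromodulator and peptide receptors, of which 39 were tested, 12 were higher and 0 lower in eGFP/tdTomato than in tdTomato cells, and 19 were higher and 0 lower in the eGFP than in the tdTomato fraction. For lower genes, DESeq2, limma-voom and edgeR at an unadjusted p of 0.05 also gave 0 in both comparisons. Of all genes, 16.8% were called higher and 12.4% lower in the first of these comparisons, and 20.4% and 14.9% in the other. The median log2 fold changes of the list were 1.43 and 1.86, against 0.70 and 0.79 over all genes. Both medians include genes of low level. On the list, Drd1 averaged 2.09, 1.99 and 1.22 CPM in the eGFP/tdTomato, eGFP and tdTomato fractions, and Htr2c 1.41, 1.49 and 0.59 CPM. With a filter of at least 1 CPM in 4 libraries, the medians over all genes were 0.12 and 0.18. Between the eGFP/tdTomato and eGFP fractions 2.49% of all genes were called, and of this list 1 was higher and 1 lower. Gabbr2, a subunit of the GABA-B receptor, was higher (125 against 40.5 CPM, log2 fold change 1.63, adjusted p = 0.00570). The cholecystokinin receptor gene Cckbr was lower (1.95 against 11.8 CPM, −2.60, adjusted p = 0.00331). Ntrk2, the receptor of the growth factor BDNF, was at 1413, 1277 and 168 CPM in the eGFP/tdTomato, eGFP and tdTomato fractions, and the PACAP receptor gene Adcyap1r1 was at 888, 589.6 and 54.1 CPM. Both were higher in each GFP-sorted fraction than in the tdTomato fraction, with log2 fold changes of 3.07 and 2.93 for Ntrk2 and 4.04 and 3.45 for Adcyap1r1. Gpr37l1 (739, 287 and 347 CPM) passed in none of the 3 comparisons.

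Genes that make, release or remove the ligands were called in both directions, as were genes over the whole set tested. In that set 16.8% were higher and 12.4% lower in the eGFP/tdTomato than in the tdTomato fraction. The shares were 20.4% and 14.9% for the eGFP over the tdTomato fraction. Of 14 genes of purine release and breakdown, 8 were higher and 2 lower in eGFP/tdTomato than in tdTomato cells, and the same numbers held for the eGFP against the tdTomato fraction. Alpl, a phosphatase that frees adenosine from AMP, was at 175, 84.2 and 3.14 CPM in the eGFP/tdTomato, eGFP and tdTomato fractions, and the equilibrative nucleoside transporter gene Slc29a1 was at 79.2, 61.0 and 12.7 CPM. Both were higher in each GFP-sorted fraction than in the tdTomato fraction, as was Adk, the kinase that removes adenosine (112, 92.0 and 48.2 CPM). Panx1, a channel that releases ATP, was lower in both (9.59, 6.89 and 130.0 CPM; log2 fold changes −3.76 and −4.24). Of 11 tested ligand and ligand-processing genes out of 12, 2 were higher and 1 lower in either comparison with the tdTomato fraction: the neurotensin-cleaving peptidase gene Nln was higher (50.01, 54.0 and 17.2 CPM) and the decarboxylase gene Ddc lower (7.02, 2.32 and 284 CPM), while Ece1, which activates endothelins (162, 107 and 122 CPM), and Thop1 (24.8, 19.98 and 35.0 CPM) passed in none. Of 6 genes of monoamine uptake and breakdown, 2 were higher and 2 lower in the eGFP/tdTomato, and 3 higher and 2 lower in the eGFP, than in the tdTomato fraction; the monoamine oxidase genes Maoa (209, 208 and 72.8 CPM) and Maob (89.3, 81.9 and 19.0 CPM) were higher in both and the transporter gene Slc22a3 (1.26, 1.99 and 7.71 CPM) was lower. The medians of log2 fold change against the tdTomato fraction, for the eGFP/tdTomato and then the eGFP fraction, were 1.67 and 1.06 for the purine genes, 1.33 and 1.65 for the ligand genes, and 0.82 and 0.73 for the monoamine genes. Over all genes these medians were 0.70 and 0.79. EdgeR called 0 genes of these 3 lists between the eGFP/tdTomato and eGFP fractions, beside 2.49% of all genes. At an unadjusted p of 0.05 it gave 4 purine genes, 2 ligand genes and 0 monoamine genes, and DESeq2 and limma-voom each called 2, 1 and 0 after adjustment.

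Downstream signalling genes were called in both directions, as genes were over the whole set tested. There, 16.8% were higher and 12.4% lower in the eGFP/tdTomato than in the tdTomato fraction. For the eGFP over the tdTomato fraction these shares were 20.4% and 14.9%. Of 15 genes of Gq and calcium signalling, 4 were higher and 4 lower in the eGFP/tdTomato, and 5 higher and 3 lower in the eGFP, than in the tdTomato fraction. Itpr2, a calcium channel of internal stores, was at 143, 72.0 and 935 CPM in the eGFP/tdTomato, eGFP and tdTomato fractions, a log2 fold change of −2.71 and −3.70 against the tdTomato fraction (adjusted p = 7.94e-07 and 4.00e-08). Gnaq, the Gq subunit gene, was lower in both (157, 156 and 252 CPM), as was the phospholipase gene Plcb1 (28.6, 32.7 and 104 CPM). Called higher in both were the calcium channel gene Itpr1 (62.0, 70.3 and 6.14 CPM), the phospholipase genes Plcb3 (60.2, 41.4 and 10.4 CPM) and Plcb4 (28.4, 29.6 and 5.73 CPM) and the kinase gene Prkca (101, 91.1 and 30.6 CPM); these 4 were named after their values were seen. Of 21 genes of Gi, Gs and cyclic AMP signalling, 5 were higher and 7 lower in the eGFP/tdTomato, and 4 higher and 8 lower in the eGFP, than in the tdTomato fraction, with Gnao1 (99.5, 80.2 and 295 CPM) and Gnai1 (28.9, 24.2 and 215 CPM) lower in both. Called higher in both were the Gi subunit gene Gnai2 (181, 196 and 55.3 CPM) and the adenylyl cyclase genes Adcy8 (208, 174 and 6.21 CPM), Adcy1 (23.2, 18.4 and 10.3 CPM) and Adcy2 (23.9, 17.7 and 2.86 CPM), also named after their values were seen. The medians against the tdTomato fraction were 0.86 and 0.97 for the Gq list and −0.24 and −0.34 for the cyclic AMP list. Over all genes they were 0.70 and 0.79. In eGFP/tdTomato over eGFP, edgeR called 0 genes of either list, beside 2.49% of all genes. At an unadjusted p of 0.05 it gave 1 gene of the Gq list and 3 of the cyclic AMP list, where DESeq2 called 1 and 1 and limma-voom 1 and 0. Of 12 genes of receptor desensitization, 7 were higher and 2 lower in the eGFP/tdTomato, and 6 higher and 2 lower in the eGFP, than in the tdTomato fraction, with medians of 1.06 and 0.59. Grk3, a receptor kinase, was at 178, 80.9 and 2.00 CPM, higher in both by log2 fold changes of 6.47 and 5.34. Rgs3 was at 10.8, 13.9 and 51.3 CPM, lower in both with log2 fold changes of −2.25 and −1.88. Between the eGFP/tdTomato and eGFP fractions 1 gene of this list was higher, Rgs7 (20.9 against 5.31 CPM, log2 fold change 1.98, adjusted p = 0.00656), and 1 lower, Rgs2 (31.9 against 67.2 CPM, −1.08, adjusted p = 0.0137).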

How the data were processed

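Sorted spinal cord cells were profiled by RNA sequencing on a BGISEQ-500, per the labels' protocols. Per the submitters' processing notes, STAR, HTSeq and the build GRCm38 (mm10) were used; versions, annotation release and strand setting are not given in the sources used here. The authors deposited raw counts per Ensembl gene, 1 file per library, and these counts were used as deposited. Lines that name no gene, such as reads outside genes (21.2 to 57.1% of a library), stayed out of library sizes and tests. Names, positions and exon lengths came from GENCODE M21, which held 53360 of 53465 identifiers (99.8%), and promoters from RefSeq GRCm38.p6. An exon length is the union of all annotated exons.

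All 12 libraries entered 1 edgeR 4.0.16 fit (R 4.3.3; TMM factors, filterByExpr by group, robust quasi-likelihood F-test, fraction as the only factor), with Benjamini-Hochberg adjustment over the 29361 genes tested and calls at 0.05. SEs were derived from each log2 fold change and its F statistic, and intervals span 2 SE on either side. DESeq2 1.42.0 and limma-voom (limma 3.58.1) were alternatives. The fit was tested on simulated counts. Ratios within a library used counts per kilobase of exon with 0.5 counts added, and exact permutation tests. No 2 libraries of a fraction were duplicates. Replicate numbers were not used to pair libraries. Each gene's counts limit its precision, and the SD over libraries gives it; PCR duplicates are not separated from molecules.

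The receptors and the gene lists were chosen with earlier results of these data known. Genes named were the receptors, the 2 nearest profiles of each, from each list the genes called between the eGFP/tdTomato and eGFP fractions and up to 4 with the highest fraction mean in CPM, and the genes the reporters are named for. One gene that this rule picked is not reported here. Of the marker lists, those not printed elsewhere summed to 10.6 to 25.5, 22.5 to 44.1 and 5.35 to 14.1 CPM (endothelium), 346 to 545, 747 to 2149 and 111 to 370 CPM (fibroblast, of which Pdgfra, also on the progenitor list, was 98.7 to 358 CPM in the tdTomato libraries), 11.8 to 21.6, 218 to 471 and 1.71 to 4.24 CPM (ependyma), 36.8 to 58.0, 56.7 to 71.7 and 67.0 to 93.0 CPM (neuron) and 101 to 111, 103 to 164 and 17.3 to 40.0 CPM (Schwann cell) in the eGFP/tdTomato, eGFP and tdTomato fractions.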

Additional observations from a re-analysis of the deposited data

Results flagged for a closer look

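Adra1a had a library far from the others of its fraction. In the tdTomato fraction, replicate 5 was at 2.58 CPM (70 counts), against 1.11, 1.20 and 1.19 CPM in replicates 1, 2 and 3 (25, 40 and 32 counts). The gap from replicate 5 to its nearest neighbour was 0.939 of the whole range, above the 95% critical value of Dixon's test for 4 libraries. Of 39 sets of 4 libraries examined, this was the only one past the limit, and chance passes about 1 in 20. Replicate 5 also had the highest share of reads outside genes of the tdTomato libraries, 31.5% against 21.2 to 26.6% in the others, and its part in the Adra1a level was not tested. Replicate 5 lay below every library of the eGFP/tdTomato and eGFP fractions for this gene.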

How the results depend on the processing

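The 10 receptors were fitted under 22 alternatives in each of 3 comparisons, 660 values in all: 641 kept their direction and side of the threshold, 10 passed newly, 2 no longer passed and 7 changed sign. The number of receptors called between the eGFP/tdTomato and eGFP fractions was 0. It was 1 (Adora1) with upper-quartile factors, with a filter of at least 1 CPM in 4 libraries, with DESeq2, with limma-voom and with protein-coding genes only, and 2 (Adora1 0.87, adjusted p = 0.0203, and Adora2b 0.68, adjusted p = 0.0184) with a covariate for reads outside genes. Leaving out 1 library gave 0 to 1; the 1 came without eGFP replicate 3 (Adora1, 1.31, adjusted p = 0.00294). The 7 changes of sign were in this comparison, in values near 0 that were not called: leaving out 1 library, P2ry1 ranged over −0.31 to 0.11, Adra1a over −0.37 to 0.055 and Ednra over −0.20 to 0.17, with signs turned without eGFP replicate 3 (all of them), eGFP replicate 5, eGFP/tdTomato replicate 1 or 2 (P2ry1), or eGFP/tdTomato replicate 5 (Ednra). Against the tdTomato fraction, 9 to 10 receptors of the eGFP/tdTomato fraction and 9 of the eGFP fraction were called throughout. Over all genes tested the median ranged from 0.12 to 0.97 for the eGFP/tdTomato over the tdTomato fraction and from 0.10 to 1.07 for the eGFP over the tdTomato fraction. The genes called between the eGFP/tdTomato and eGFP fractions numbered 730, against 1496 with DESeq2, 1175 with the covariate and 450 to 1008 without 1 library. The causes were not tested.

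Leaving out 1 library, the ratio of Ednrb to Ednra differed between the eGFP/tdTomato and eGFP fractions by 0.41 to 0.66, that of Adra1b to Adra1a by 0.75 to 1.29 and that of Adora1 to Adora2b by −0.013 to 0.29 (log2), the negative value without eGFP replicate 2.

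Whether equal replicate numbers pair the libraries was checked by the correlation of deviations from the fraction means over 18531 genes. It was −0.22 to 0.68 for same-numbered libraries, and over 0.1 in 9 of 12 such pairs (among them all pairs of numbers 3 and 5), against 11 of 36 pairs with different numbers. Of the libraries, 6 of 12 correlated best with their own number. Since not every same-numbered pair was over 0.1 and the labels do not say what a number shares, the numbers were not taken as pairs. With the replicate block, edgeR called 2 receptors between the eGFP/tdTomato and eGFP fractions (Adora1 1.01, adjusted p = 0.00872, and Adora2b 0.86, adjusted p = 0.0151), 10 between the eGFP/tdTomato and tdTomato fractions and 9 between the eGFP and tdTomato fractions, and 1239 genes of all between the first pair. For the ratios, the exact sign-flip test over the 4 numbers cannot go below p = 0.125. With this block the differences of 2.60 and 2.09 (Ednrb to Ednra), −2.39 and −3.37 (Adra1b to Adra1a) and −3.35 and −3.51 (Adora1 to Adora2b) against the tdTomato fraction had an adjusted p of 0.141.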
